A study of Homo sapiens with 12 samples.

Results

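CCAR2 (ENSG00000158941), the gene of the nuclear protein DBC1, was examined together with 7 genes whose proteins bind DBC1, are bound or inhibited by it, or belong to the ubiquitin enzymes followed with it: CCAR1, SIAH1, SIAH2, OTUD5, ZNF326, HDAC3 and GSK3B. The genes were taken by symbol, and all 8 were found among the 60664 genes of the deposited table. RNA-seq was carried out on MDA-MB-231 cells, an established human cell line from a triple-negative breast cancer, in 3 groups of 4 libraries. WT cells of wildtype CCAR2 genotype were kept untreated in normoxia (0 hr of hypoxia) or were put under hypoxia for 24 hr, which according to the methods was 1% O2 in a chamber. CCAR2-/- cells, called KO here, were untreated and kept in normoxia, and no KO library under hypoxia was analysed here. According to the methods, the KO cells were made with LentiCRISPR carrying 1 guide against CCAR2, whether they are 1 clone or a pool is not given in the sources used here, and neither is whether the WT cells carried a control vector.

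As background, DBC1 has no enzyme activity that is well established and acts by binding other proteins. It occupies and inhibits deacetylases such as SIRT1 and HDAC3, it binds nuclear receptors, and with ZNF326 it forms the DBIRD complex, which couples mRNA splicing to elongation by RNA polymerase II. CCAR1 is its paralog, a coactivator of nuclear receptors and p53. A protein is marked for the proteasome when an E3 ligase attaches chains of ubiquitin to it, and a deubiquitinase takes them off again. SIAH1 and SIAH2 are RING-type E3 ligases known in hypoxia for acting on the prolyl hydroxylases that mark HIF1A, and SIAH2 and OTUD5 were studied here as ligase and deubiquitinase of DBC1. GSK3B is a serine/threonine kinase whose phosphorylation often precedes recognition by a ligase. These steps act on protein, whereas the libraries measure RNA.

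The deposited values are estimated counts per gene, and their sum per library was between 68599412 and 213743693. WT hypoxia replicates 1 and 2 and KO replicate 2 were the 3 libraries whose values summed to under 100000000, and WT hypoxia replicate 2 lay farthest from the other libraries of its group. VIM, CD44, EGFR, FN1 and KRT18, genes of this mesenchymal line, were all present in the 12 libraries, with VIM between 4408 and 5397 CPM, counts scaled to a common library total. ESR1, PGR and CDH1 were at or under 0.470 CPM in every library. ERBB2 (88.8 to 107 CPM) and EPCAM (11.7 to 17.9 CPM), which were also listed as low or absent in this line, were not absent. Of the markers of other cell types, PTPRC, CDH5 and ALB were at most at 0.255 CPM, MYH11 at 1.08 and PECAM1 at 5.76, with PECAM1 means of 2.56 in WT normoxia, 3.39 in WT hypoxia and 5.51 in KO cells. FN1, a matrix protein, stood at a mean of 413 CPM in WT normoxia, 404 in WT hypoxia and 1215 in KO cells. The part of these genes in the results was not tested.

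The 8 genes were first compared by level per length, as CPM divided by the kilobases of all annotated exons. In WT normoxia CCAR2 had a mean of 22.4 ± 0.477 CPM per kb (SD, n = 4) and HDAC3 22.1 ± 0.753, and the libraries of these genes overlapped, so that their order cannot be told. Below them followed CCAR1 with 18.2 ± 1.28, OTUD5 with 11.9 ± 0.266 and SIAH2 with 10.2 ± 0.466 CPM per kb. GSK3B had 6.52 ± 0.549, ZNF326 3.01 ± 0.109 and SIAH1 2.67 ± 0.113 CPM per kb, and from HDAC3 to SIAH1 no neighbours in this order shared a library value. Between the ligases, SIAH2 had 3.83 ± 0.263 times the level of SIAH1 per length of all exons (mean of the ratio within each library, SD, n = 4) and 1.98 ± 0.136 times per length of the longest transcript. In WT hypoxia the order was the same except that HDAC3 and CCAR2, whose libraries overlapped, changed places. OTUD5 and SIAH2 (11.99 ± 0.245 and 11.3 ± 0.640 CPM per kb) and ZNF326 and SIAH1 (2.35 ± 0.214 and 2.27 ± 0.124) also overlapped there. In KO cells CCAR2 had dropped from the first place to 8.85 ± 0.430 CPM per kb, beside SIAH2 with 8.94 ± 0.528, with overlap between them and between ZNF326 and SIAH1, and CCAR1 led with 18.7 ± 0.492. Dividing by the longest transcript in place of all exons put HDAC3 at 52.3 and CCAR2 at 30.2 CPM per kb in WT normoxia and SIAH1 (5.36) above ZNF326 (3.50), so the order within these pairs rests on the length used.

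**Figure D1:**
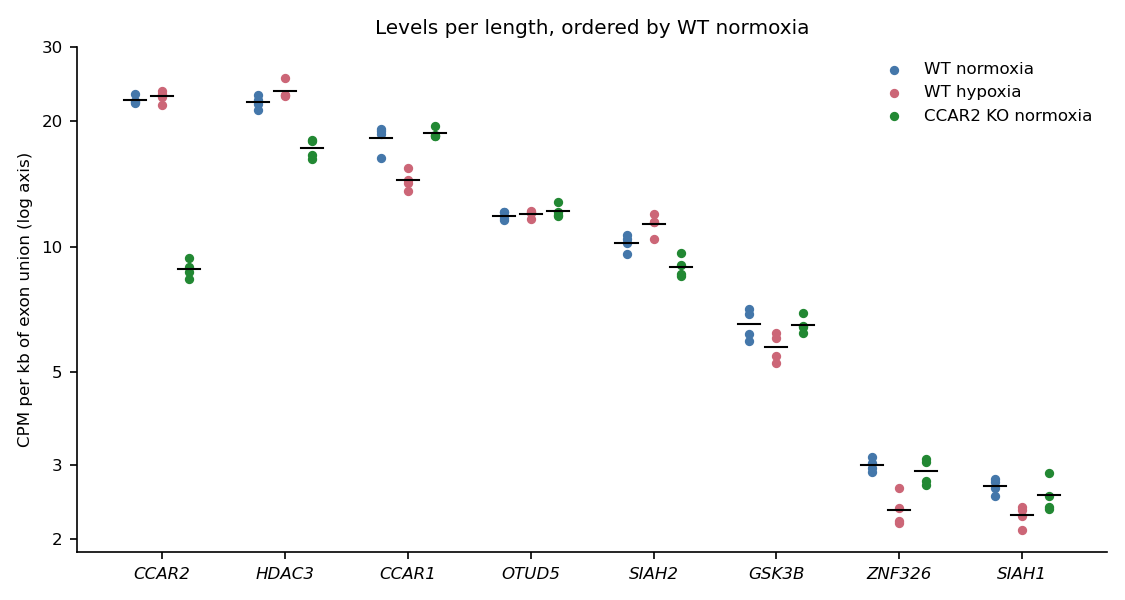
Level of the 8 genes in CPM per kb of annotated exon (log axis), with 1 point per library and a bar at the mean of the 4 libraries of a group. From WT normoxia to KO cells CCAR2 goes from 22.4 to 8.85 CPM per kb and HDAC3 from 22.1 to 17.2.

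CCAR2, the targeted gene, was read in every library first, as a check of the labels. In WT normoxia its level was 144, 145, 146 and 151 CPM in replicates 1 to 4. In WT hypoxia it was 149, 143, 154 and 152 CPM, and in KO cells 54.7, 56.7, 61.3 and 58.5 CPM. All 4 KO libraries lay far below all 8 WT libraries, while the normoxia and hypoxia libraries overlapped. CCAR2 thus fell to 39.5% of the WT level in KO cells, a log2 fold change of -1.34 (SE 0.04, 95% interval -1.43 to -1.25, adjusted p = 2.135e-09 by the quasi-likelihood test of edgeR, adjusted after Benjamini-Hochberg over all genes). Leaving out any 1 library moved this value only between -1.37 and -1.32. The KO libraries still held between 3952 and 9444 counts of CCAR2, and a count per gene does not tell an edited transcript from an intact one. In bulk RNA, fewer cells with the transcript and less of it in each cell cannot be told apart. Under hypoxia CCAR2 RNA had a log2 fold change of 0.02 (SE 0.05, 95% interval -0.08 to 0.12, adjusted p = 0.802, edgeR), an interval from 94.6% to 109% of the normoxia level. Against WT hypoxia, KO cells had 38.6% of the level, with a log2 fold change of -1.37 (95% interval -1.48 to -1.26).

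**Figure D2:**
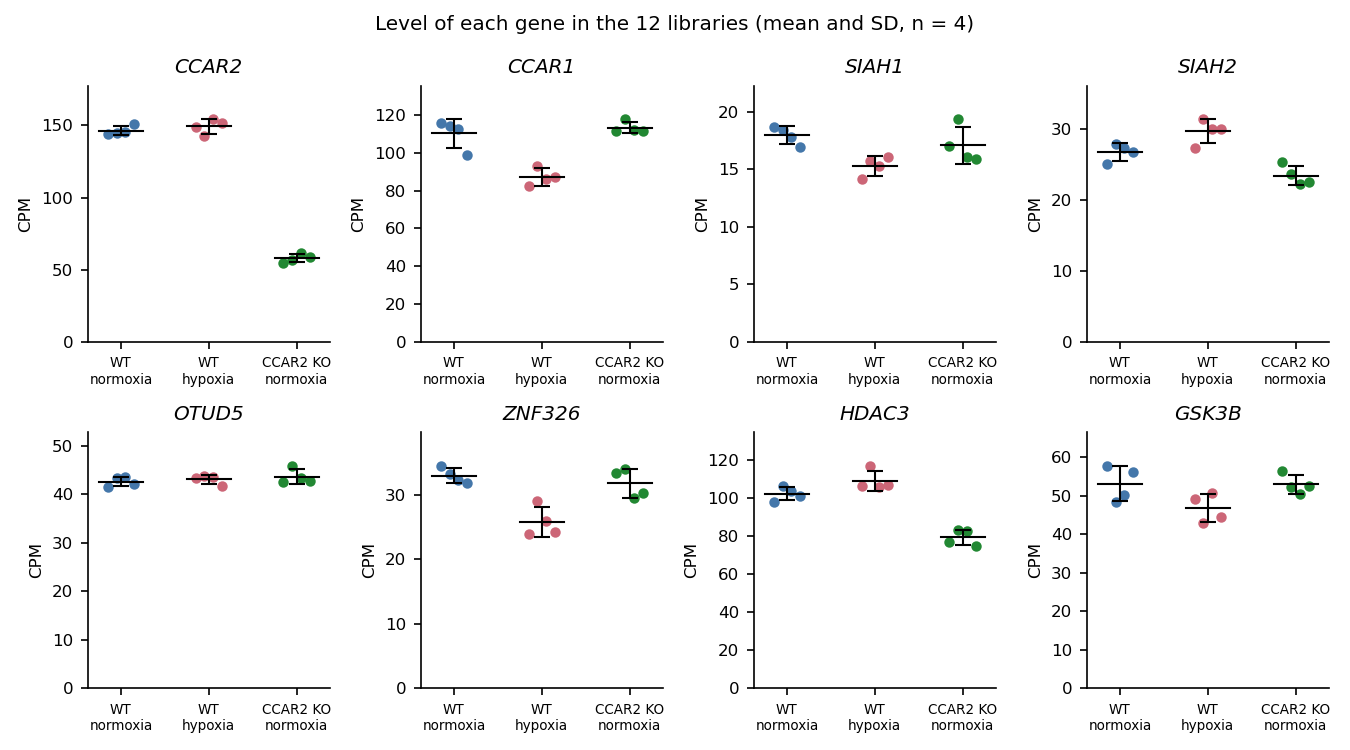
CPM of each of the 8 genes in each library (points), with the mean and SD of the 4 libraries of a group (lines), on linear axes from 0. CCAR2 is lower in all 4 KO libraries (54.7 to 61.3 CPM), CCAR1, SIAH1 and ZNF326 are lower in hypoxia, HDAC3 is lower in KO cells, and OTUD5 lies between 41.5 and 45.8 CPM throughout.

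Reads of overlapping genes may enter these counts, since whether the counting used strand is not given in the sources used here. The antisense gene ENSG00000253200 within CCAR2 had counts equal to 4.60% of those of CCAR2, and BIN3, which overlaps its end on the other strand, 8.69%. BIN3 had 10.7 ± 0.464 CPM in WT normoxia and 10.8 ± 0.429 in KO cells (log2 fold change 0.01), and ENSG00000253200 had a log2 fold change of -0.24 with an adjusted p of 0.0629 (edgeR). SIAH1 had the largest such share, with LONP2 on the opposite strand at 229% of its counts. Their gene bodies, introns included, share 6759 bp, and the overlap of exons was not computed.

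CCAR1 and ZNF326 were lower under hypoxia and were close to the WT level in KO cells. CCAR1 had 116, 114, 112 and 98.8 CPM in WT normoxia, 82.3, 93.2, 86.1 and 87.2 CPM in WT hypoxia, and 112, 118, 112 and 112 CPM in KO cells. All 4 hypoxia libraries lay below all others, and WT normoxia replicate 4 was the lowest of its group. The paralog of CCAR2 fell by 0.35 on the log2 scale under hypoxia, to 78.6% of normoxia (SE 0.06, adjusted p = 0.00229, edgeR), and its log2 fold change in KO cells was 0.04 (95% interval -0.07 to 0.14, adjusted p = 0.635). The ratio of CCAR1 to CCAR2 per length was 0.814 ± 0.0733 in WT normoxia, 0.631 ± 0.0499 in WT hypoxia and 2.12 ± 0.124 in KO cells (SD, n = 4).

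ZNF326, the zinc-finger partner of DBC1 in the DBIRD complex, had 34.5, 33.3, 32.4 and 31.8 CPM in WT normoxia and 24.0, 29.1, 26.0 and 24.2 CPM in WT hypoxia. In KO cells it had 33.5, 34.03, 29.5 and 30.3 CPM. Normoxia and hypoxia did not overlap, with WT hypoxia replicate 2 nearest to normoxia, whereas KO and WT normoxia overlapped. ZNF326 fell by 0.36 on the log2 scale under hypoxia, to 77.7% of normoxia (SE 0.07, adjusted p = 0.00331, edgeR), and in KO cells its log2 fold change was -0.05 (95% interval -0.18 to 0.07). Both drops lie under the fold threshold of 0.5 of the methods, and both passed the adjusted p in each of the 8 fits that left out 1 library.

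The promoters of CCAR1 and ZNF326, which fell together in hypoxia, and of SIAH2, the ligase, are shown to give the sequence around their starts. They run from 250 bases before to 50 bases after the RefSeq start (GRCh38.p14), 5′ to 3′ on the strand of the gene, and capitals mark ACGTG or GCGTG, the core letters of a hypoxia response element, read on either strand (CACGT or CACGC). They lie at chr10:68720989-68721288 (+) for CCAR1, chr1:89994860-89995159 (+) for ZNF326 and chr3:150763120-150763419 (-) for SIAH2.
CCAR1: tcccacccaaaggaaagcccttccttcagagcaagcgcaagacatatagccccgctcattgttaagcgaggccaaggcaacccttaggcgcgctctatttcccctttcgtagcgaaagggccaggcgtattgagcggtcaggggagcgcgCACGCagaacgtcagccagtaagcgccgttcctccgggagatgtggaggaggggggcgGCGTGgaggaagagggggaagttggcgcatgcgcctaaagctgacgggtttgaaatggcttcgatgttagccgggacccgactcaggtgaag
ZNF326: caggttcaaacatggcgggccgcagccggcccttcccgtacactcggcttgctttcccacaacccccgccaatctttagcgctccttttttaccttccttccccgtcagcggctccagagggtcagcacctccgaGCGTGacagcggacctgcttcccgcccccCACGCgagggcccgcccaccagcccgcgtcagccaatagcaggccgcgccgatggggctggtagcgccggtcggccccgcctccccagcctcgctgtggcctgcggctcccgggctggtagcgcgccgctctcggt
SIAH2: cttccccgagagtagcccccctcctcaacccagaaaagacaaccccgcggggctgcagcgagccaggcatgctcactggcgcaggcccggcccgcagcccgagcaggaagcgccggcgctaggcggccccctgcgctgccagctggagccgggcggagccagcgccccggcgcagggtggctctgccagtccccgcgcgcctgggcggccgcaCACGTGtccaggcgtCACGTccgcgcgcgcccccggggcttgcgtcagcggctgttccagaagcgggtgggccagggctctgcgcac
CCAR1 and ZNF326 held 2 matches each, of the GCGTG form, and SIAH2 held 2 places with the ACGTG form, one of which reads the same on both strands (CACGTG) and so counts as 2 overlapping matches. Of all 35116 promoters of this length, 48.5% held at least 1 match, 21.4% the ACGTG form and 36.5% the GCGTG form. Promoters of 7 of the 8 genes, all but CCAR2, were found and each held at least 1 match, so that these letters stand in the promoters of genes that fell in hypoxia and of genes that did not pass the test alike. The promoters of these 7 genes held 60.0% to 77.7% G and C, against a median of 58.7% over all promoters. SIAH1 and OTUD5 had more than 1 promoter each. What G and C content adds to the number of matches was not tested. The letters are a description and say nothing of binding.

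Of the SIAH ligases and the deubiquitinase, SIAH2 had a lower level in KO cells, SIAH1 a lower level in hypoxia, and OTUD5 nearly the same level everywhere. SIAH2 had 25.1, 27.9, 27.2 and 26.7 CPM in WT normoxia, 27.3, 31.3, 29.97 and 29.9 CPM in WT hypoxia, and 25.3, 23.6, 22.2 and 22.5 CPM in KO cells. Each group overlapped WT normoxia through its replicate 1, and the KO libraries all lay below the hypoxia libraries. In hypoxia the log2 fold change was 0.14 (SE 0.06, 95% interval 0.01 to 0.27, adjusted p = 0.113, edgeR), and permuting the libraries (exact, two-sided, on log2 CPM) gave p = 0.0571, where the smallest value that 4 against 4 libraries allow is 0.0286. With upper-quartile normalization it passed (0.19, adjusted p = 0.0362, edgeR). In KO cells it fell by 0.19 on the log2 scale, to 87.5% of WT (SE 0.06, adjusted p = 0.0303, edgeR). This pass was lost, with an adjusted p of up to 0.0769, when WT normoxia replicate 2, 3 or 4 or KO replicate 3 or 4 was left out. The exact permutation p of SIAH2 in KO cells against WT normoxia was 0.0571 as well. The direct comparison of KO with WT hypoxia gave a log2 fold change of -0.34 (SE 0.06, adjusted p = 0.00134, edgeR), which held without any 1 library.

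SIAH1 had 18.7, 18.4, 17.8 and 17.0 CPM in WT normoxia, 14.1, 15.7, 15.3 and 16.04 CPM in WT hypoxia, and 17.0, 19.3, 16.1 and 15.9 CPM in KO cells. Hypoxia lay below normoxia with no overlap, and KO cells overlapped both. The log2 fold change in hypoxia was -0.24 (SE 0.06, adjusted p = 0.0176, edgeR), a fall to 84.7% of normoxia. The pass was lost without WT normoxia replicate 2 or WT hypoxia replicate 1 (adjusted p up to 0.0642). It was also lost with upper-quartile normalization or without WT hypoxia replicates 1 and 2 together, the libraries of low sum in this comparison (up to 0.0655). LONP2, the overlapping gene that encodes a peroxisomal protease, had log2 fold changes of 0.00 in hypoxia (adjusted p = 0.978) and 0.22 in KO cells (adjusted p = 0.00437, edgeR), and how much of its reads are counted with SIAH1 was not tested.

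OTUD5 had 41.5, 43.4, 43.5 and 42.0 CPM in WT normoxia, 43.2, 43.7, 43.6 and 41.8 CPM in WT hypoxia, and 42.6, 45.8, 43.4 and 42.7 CPM in KO cells. The 3 groups overlapped. Its 95% intervals were -0.09 to 0.11 on the log2 scale in hypoxia, from 93.7% to 108% of normoxia, and -0.06 to 0.13 in KO cells, from 95.7% to 109.5% of WT. Set against each other per length, SIAH2 over OTUD5 gave 0.828, 0.883, 0.860 and 0.870 in WT normoxia. In WT hypoxia this ratio was 0.866, 0.984, 0.945 and 0.982, and in KO cells 0.815, 0.707, 0.703 and 0.722. Every KO library lay below every WT library in this ratio, and hypoxia replicate 1 lay among the normoxia libraries.

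HDAC3, the deacetylase that DBC1 inhibits, was lower in KO cells. It had 98.2, 107, 104 and 102 CPM in WT normoxia, 107, 117, 106 and 107 CPM in WT hypoxia, and 76.8, 83.1, 82.7 and 75.2 CPM in KO cells. All KO libraries lay below all WT libraries, while the WT groups overlapped. HDAC3 fell by 0.37 on the log2 scale in KO cells, to 77.5% of WT (SE 0.04, 95% interval -0.47 to -0.27, adjusted p = 6.527e-05, edgeR), with values between -0.39 and -0.34 when 1 library was left out. In hypoxia the log2 fold change was 0.08 (95% interval -0.03 to 0.20, adjusted p = 0.290). GSK3B had 57.8, 48.5, 50.3 and 56.1 CPM in WT normoxia, 49.3, 43.1, 50.8 and 44.6 CPM in WT hypoxia, and 56.5, 52.4, 50.6 and 52.7 CPM in KO cells. The groups overlapped, and WT normoxia split into a higher and a lower pair. The log2 fold change of the kinase was -0.19 in hypoxia (SE 0.08, adjusted p = 0.0956, edgeR) and -0.00 in KO cells (95% interval -0.14 to 0.13).

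Counted over the 8 genes, none was called in hypoxia at the threshold of the methods, an adjusted p under 0.05 together with a log2 fold change of 0.5 or more in size, where 7.26% of all 21776 genes tested were called (5.83% higher and 1.43% lower). DESeq2 and limma-voom gave 0 calls as well. At an unadjusted p under 0.05 in edgeR there were 5, of which 1 was higher (SIAH2) and 4 were lower (CCAR1, SIAH1, ZNF326 and GSK3B). The share of all genes at this unadjusted p was not counted and cannot be below the 23.5% past the adjusted p. By the adjusted p alone 0 rose and 3 fell (CCAR1, SIAH1 and ZNF326), against 11.6% and 12% of all genes (23.5% in all), and the same 3 were the ones without overlap between the groups, against 26.4% (12.7% of all genes lower and 13.7% higher). The median log2 fold change was -0.09 over the 8 genes and 0.01 over all genes tested.

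In KO against WT normoxia 1 of the 8 genes was called, CCAR2 itself, where 9.67% of 21410 genes were called (6.73% higher and 2.94% lower). By the adjusted p alone 3 fell (CCAR2, HDAC3 and SIAH2) and 0 rose, against 15.4% and 14.9% of all genes, and CCAR2 and HDAC3 showed no overlap between the groups, against 30.8% (15.2% lower and 15.6% higher). Aside from the targeted gene, 2 of the 7 others passed the adjusted p, and over all genes 30.4% did. The median log2 fold change was -0.06 over the 8 genes and 0.01 over all genes.

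These comparisons share the WT normoxia libraries, and the test of their difference is KO against WT hypoxia, which differ in genotype and in oxygen at once. There 1 gene was called (CCAR2), where 15% of 21158 genes were called (7.08% higher and 7.88% lower). Of the 8, 5 passed the adjusted p alone, against 34.9% (17.1% higher and 17.8% lower), and these 5 were also the genes whose libraries did not overlap, against 35.9% (18.2% higher and 17.8% lower). CCAR1 was higher in KO cells than in hypoxia by 0.37 (adjusted p = 1.34e-04) and ZNF326 by 0.30 (adjusted p = 0.00903) on the log2 scale, while CCAR2, HDAC3 (log2 fold change -0.46, adjusted p = 5.018e-05) and SIAH2 were lower (edgeR). SIAH1 (0.15, adjusted p = 0.165), GSK3B (0.17, adjusted p = 0.0541) and OTUD5 (0.01, adjusted p = 0.852) did not pass.

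**Figure D3:**
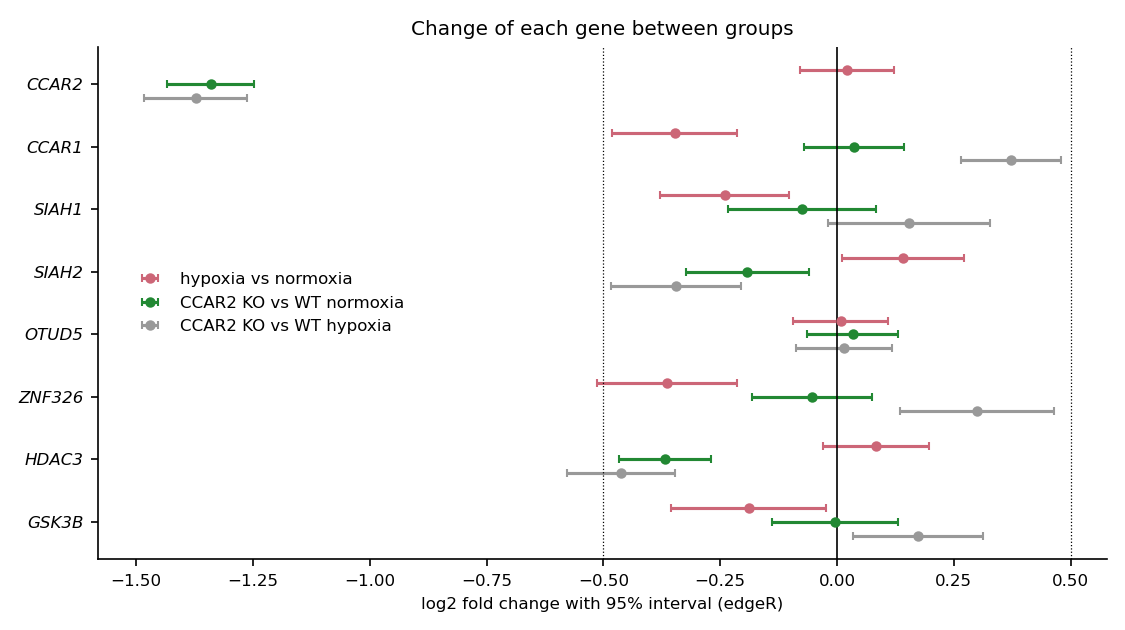
Log2 fold change of each gene (points) with its 95% interval (bars, edgeR) in hypoxia against normoxia, in KO against WT normoxia and in KO against WT hypoxia. The dotted lines mark the fold threshold of 0.5. Apart from CCAR2 in the KO cells (-1.34 and -1.37), every point lies within the dotted lines.

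The 3 genes with the profile most like CCAR2 over the 12 libraries were taken by the smallest root mean square difference of centred log2 CPM among 14705 genes with a mean of at least 100 counts. They were SKP2 (0.0822), INSYN2B (0.129) and LINC02582 (0.130). SKP2, the F-box subunit of the SCF ligase that acts on the cell cycle inhibitor p27, had 66.0 ± 1.66 CPM in WT normoxia, 63.2 ± 2.29 in WT hypoxia and 25.4 ± 1.14 in KO cells (SD, n = 4). INSYN2B had 79.3 ± 7.34, 76.2 ± 7.26 and 29.8 ± 2.06 CPM, and LINC02582 had 50.1 ± 1.69, 58.8 ± 2.61 and 22.8 ± 1.03 CPM in the same order. Likeness over 12 libraries in 3 groups is set mostly by the drop in KO cells, and the measure is a description with no test.

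The genes around CCAR2 on its chromosome were read as well. Of 41 annotated genes within 500 kb, 25 passed the filter on low counts, and in KO cells 5 were called higher and 1 lower, against 6.73% and 2.94% of all genes. The adjusted p alone gave 8 that rose and 3 that fell, against 14.9% and 15.4%. PDLIM2, a PDZ and LIM domain protein that lies 6607 bp from CCAR2, was the gene called lower, from 86.0 ± 1.77 CPM in WT normoxia to 51.5 ± 3.50 in KO cells (log2 fold change -0.74, SE 0.05, adjusted p = 4.443e-07, edgeR), and its log2 fold change in hypoxia was 0.11 (adjusted p = 0.120). C8orf58, at 482 bp, fell by 0.26 on the log2 scale (adjusted p = 0.00870, edgeR). SLC39A14, a zinc transporter at 170503 bp, fell by 0.40 (adjusted p = 3.177e-05, edgeR). SORBS3 (-0.07) and PPP3CC (0.10), at 28844 and 63490 bp, did not pass the test. The genes called higher were at 372291 bp or more, among them HR, the hairless corepressor, at 471248 bp (2.30 ± 0.321 to 6.58 ± 0.757 CPM, log2 fold change 1.52) and BMP1, a procollagen protease, at 392306 bp (19.0 ± 0.734 to 38.6 ± 1.22 CPM, log2 fold change 1.02). The others were PHYHIP, TNFRSF10C and ENSG00000253616, each with a mean under 2 CPM. All 6 calls in KO cells held without any 1 library. Under hypoxia HR (log2 fold change 1.20, adjusted p = 7.127e-04), C8orf58 (0.37, adjusted p = 0.00546) and BMP1 (0.28, adjusted p = 0.0121, edgeR) rose. SORBS3 (0.22, adjusted p = 0.0181) rose too, while SLC39A14 (-0.25, adjusted p = 0.00927) and PPP3CC (-0.28, adjusted p = 0.0257, edgeR) fell. PHYHIP (0.65), TNFRSF10C (-0.06) and ENSG00000253616 (0.14) did not pass in hypoxia. The median log2 fold change of the 25 genes in KO cells was 0.24, against 0.01 over all genes. Many of the 25 had means under 2 CPM and wide intervals, and they weigh in this median as much as the others. A median without them was not computed.

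**Figure D4:**
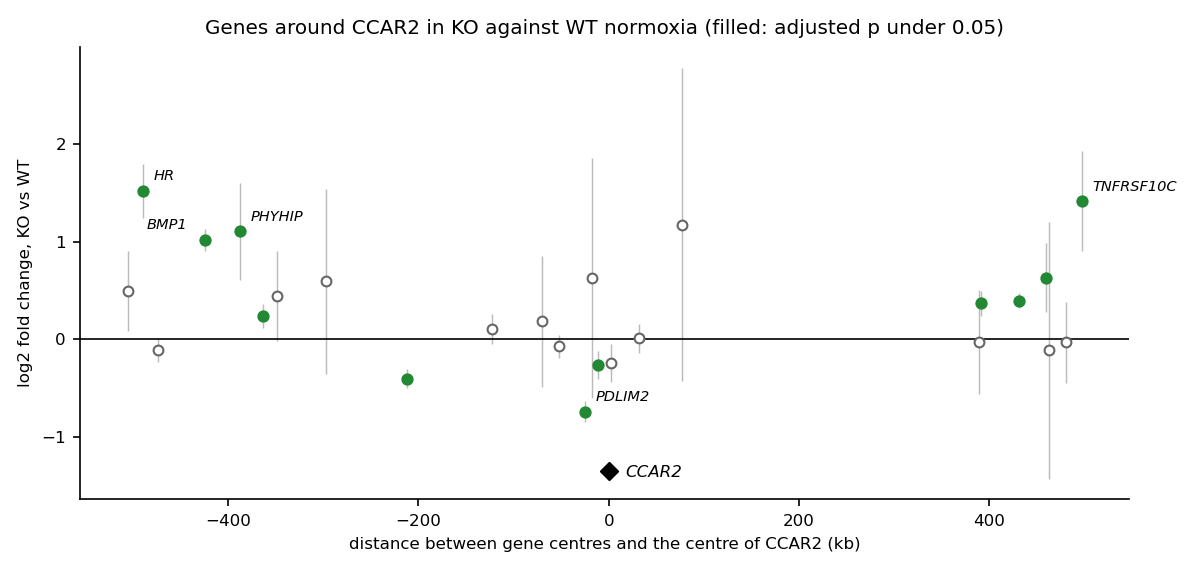
Log2 fold change in KO against WT normoxia (y axis, bars are 95% intervals) of the 25 tested genes around CCAR2, by the distance of their centres from the centre of CCAR2 in kb (x axis). Filled points passed the adjusted p, and the diamond is CCAR2. PDLIM2 is lowest at -0.74, ENSG00000248235 (0.63) and EGR3 (1.17), both under 0.2 CPM, lie above 0 with wide intervals, and the genes called higher lie toward both ends of the window.

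The wider ubiquitin system was followed in lists of genes, whose counts stand against 5.83% of all genes called higher and 1.43% called lower in hypoxia, and 6.73% and 2.94% in KO cells. The shares of all genes past the adjusted p alone were 11.6% higher and 12% lower in hypoxia and 14.9% and 15.4% in KO cells. Among 17 substrates and binding proteins of the SIAH ligases, 2 were called higher in hypoxia and 0 lower, and 3 rose and 2 fell by the adjusted p alone (29.4% of the list, against 23.5% of all genes). The calls were the prolyl hydroxylases EGLN3, from 2.96 ± 0.367 CPM in WT normoxia to 11.2 ± 0.811 in hypoxia (log2 fold change 1.92, adjusted p = 2.244e-06), and EGLN1, from 82.2 ± 2.06 to 118 ± 3.26 (0.52, adjusted p = 4.599e-05, edgeR). The call of EGLN1 rests on a value near the threshold of 0.5 and was lost without a filter on low counts (0.50). In KO cells 6 rose and 4 fell by the adjusted p alone (58.8%, against 30.4%), where the 6 became 4 without WT normoxia replicate 2 or 3 or KO replicate 4 or without a filter, and 9 with DESeq2, upper-quartile normalization or at least 10 counts in every library. EGLN3 was the 1 gene called in KO cells, at 4.50 ± 0.470 CPM (log2 fold change 0.61, adjusted p = 0.00231, edgeR), while EGLN1 had a log2 fold change of -0.09. The direct comparison of KO with hypoxia gave -1.32 for EGLN3 and -0.62 for EGLN1, and both passed (adjusted p = 2.558e-06 and 3.402e-06, edgeR).

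Of 23 clients and modifiers of DBC1, 1 was called in hypoxia and 3 in KO cells, all higher, and by the adjusted p alone 3 rose and 6 fell in hypoxia and 6 rose and 4 fell in KO cells (39.1% and 43.5% of the list, against 23.5% and 30.4%). In hypoxia 2 genes were called lower as well without WT normoxia replicate 3, and 1 without WT normoxia replicate 2 or WT hypoxia replicate 1 or 3, without a filter or with all 12 libraries in one fit. IKBKB, a kinase of the NF-kappaB pathway, rose in hypoxia from 49.4 ± 0.800 to 77.3 ± 5.78 CPM (log2 fold change 0.64, adjusted p = 4.933e-05, edgeR). NR1D1, a nuclear receptor of the circadian clock, was 10.7 ± 0.285 CPM in WT normoxia, 10.4 ± 1.01 in hypoxia and 19.9 ± 0.933 in KO cells, where it rose by 0.89 on the log2 scale (adjusted p = 4.17e-07, edgeR). ESR2, a nuclear receptor for estrogens that was also called in KO cells, rose from 0.640 ± 0.147 to 1.14 ± 0.248 CPM (log2 fold change 0.82, adjusted p = 0.01455, edgeR), and its call was lost without KO replicate 4 (adjusted p = 0.0550, edgeR).

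Partners of HDAC3 and GSK3B were taken next. Of 6 subunits of the HDAC3 corepressor complex none was called in either comparison. In hypoxia 1 was called higher with upper-quartile normalization and without WT hypoxia replicates 1 and 2 together. The same count came without WT normoxia replicate 4 or WT hypoxia replicate 2 alone. Of 10 other classical deacetylases HDAC11 alone was called, in hypoxia (8.30 ± 1.47 to 12.5 ± 0.756 CPM, log2 fold change 0.59, adjusted p = 0.00550, edgeR), a call lost without WT normoxia replicate 1 (0.50). By the adjusted p alone, 1 of the 6 subunits rose and 2 fell in hypoxia, and 0 rose and 2 fell in KO cells. Of the 10 deacetylases 4 rose and 2 fell in hypoxia and 3 rose and 0 fell in KO cells, where the 3 became 1 without WT normoxia replicate 2 and 2 without 6 of the other 7 libraries, and the 2 in hypoxia became 1 without WT normoxia replicate 1, 2 or 3 or WT hypoxia replicate 1, 3 or 4. Of 14 genes of GSK3 and the beta-catenin destruction complex 0 were called in hypoxia or in KO cells, with 1 higher and 4 lower in hypoxia and 3 higher and 1 lower in KO cells by the adjusted p in edgeR. For the 6 subunits and the 14 genes the counts by the adjusted p moved by at most 1 in each direction when any 1 library was left out. The 1 subunit that rose in hypoxia was lost without WT normoxia replicate 2 or 3 or WT hypoxia replicate 1, 3 or 4. Of those lower in KO cells, the 2 subunits became 1 without WT normoxia replicate 2 or 3 or KO replicate 2 or 4. The 1 gene of the GSK3 list became 0 without WT normoxia replicate 2 or 4 or KO replicate 2 or 4. In KO against hypoxia 2 of the 14 were called higher, AMER1 (0.50, adjusted p = 0.00559) and FRAT1 (0.75, adjusted p = 0.0333, edgeR), against 7.08% of all genes. Neither call was stable. AMER1 was called in 4 of 8 fits that left out 1 library and in 5 of 9 other alternatives, and FRAT1 in 2 of 8 and 8 of 9.

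Of 13 other OTU-family deubiquitinases tested, 2 were called lower in hypoxia, where 1 rose and 6 fell by the adjusted p alone, against 11.6% and 12% of all genes. The 6 became 4 without WT normoxia replicate 1 or 4 or WT hypoxia replicate 4 and with upper-quartile normalization. OTUD6B fell from 35.6 ± 1.91 to 24.1 ± 1.27 CPM (log2 fold change -0.57, adjusted p = 1.315e-04) and YOD1 from 65.6 ± 5.51 to 45.4 ± 2.35 (-0.54, adjusted p = 3.409e-04, edgeR). The call of YOD1 was lost without WT normoxia replicate 1 and with upper-quartile normalization (-0.48 and -0.49). In KO cells 3 rose and 2 fell, and OTUB2 was the gene called, from 3.63 ± 0.329 to 6.97 ± 0.529 CPM (0.94, adjusted p = 1.945e-05, edgeR). TNFAIP3, known as A20, passed the adjusted p in opposite directions, with 0.35 in hypoxia and -0.35 in KO cells, and the direct comparison gave -0.71 (adjusted p = 3.004e-05, edgeR). OTUD5 itself did not pass in any comparison.

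Of 26 other E3 ligases and subunits of E3 ligase complexes tested, 0 were called in hypoxia and 2 in KO cells, both lower. SKP2 fell by 1.38 on the log2 scale in KO cells, to 38.5% of WT (adjusted p = 3.37e-09), and NEDD4, a HECT-type ligase, by 0.71, from 111 ± 6.67 to 67.7 ± 5.65 CPM (adjusted p = 3.657e-06, edgeR). NEDD4 also fell in hypoxia, to 83.2 ± 5.45 CPM (-0.42, adjusted p = 8.894e-04, edgeR). By the adjusted p alone 0 rose and 9 fell in hypoxia, and 3 rose and 7 fell in KO cells. The 9 (34.6% of the list, against 12% of all genes lower) became 5 without WT normoxia replicate 1 or WT hypoxia replicate 3 and with upper-quartile normalization. They became 12 without WT hypoxia replicate 2 and 11 without WT hypoxia replicates 1 and 2 together. The 7 in KO cells (26.9%) stood against 15.4%.

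Of 34 genes of ubiquitin and its E1 and E2 enzymes, 0 were called in hypoxia and 3 in KO cells, all lower. UBE2V2, a partner of UBE2N in making K63-linked chains, fell from 64.8 ± 2.50 to 36.5 ± 1.96 CPM (log2 fold change -0.83, adjusted p = 1.79e-07), and UBE2S, an enzyme of the anaphase-promoting complex, from 804 ± 75.0 to 551 ± 38.1 (-0.55, adjusted p = 1.081e-04, edgeR). UBE2J1, an enzyme of the endoplasmic reticulum, fell from 117 ± 4.22 to 82.1 ± 5.12 CPM (-0.51), a call lost without WT normoxia replicate 1 (-0.48), without KO replicate 3 (-0.47) and with upper-quartile normalization (-0.49). By the adjusted p alone 0 rose and 11 fell in hypoxia (32.4%, against 12% of all genes lower), which became 5 with upper-quartile normalization, and 3 rose and 15 fell in KO cells (44.1% lower, against 15.4%).

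The proteasome list lay slightly below 0 as a whole. None of its 32 subunits was called in edgeR, yet all 32 log2 fold changes were below 0 in hypoxia and in KO cells, from -0.36 to -0.04 and from -0.27 to -0.01. With upper-quartile normalization 2 in hypoxia and 1 in KO cells turned above 0. So did 1 in hypoxia without WT hypoxia replicate 1 and 1 in KO cells without KO replicate 3. The medians were -0.15 and -0.12, against 0.01 over all genes in each comparison, and 10 subunits fell in hypoxia and 12 in KO cells by the adjusted p alone (31.3% and 37.5%, against 12% and 15.4% of all genes lower). The 10 became 5 with upper-quartile normalization and 16 without WT hypoxia replicates 1 and 2 together. The 12 became 7 with all 12 libraries in one fit and 17 without WT normoxia replicate 1. The strongest were PSMB2 in hypoxia, from 142 ± 4.77 to 111 ± 8.15 CPM, and PSMD12 in KO cells, from 107 ± 4.66 to 88.2 ± 6.62 CPM, both chosen after their values were seen. The counts in hypoxia moved with single libraries, between 4 and 21 for the proteasome and between 4 and 20 for the E1 and E2 list, with the highest count in both without WT hypoxia replicate 2. There 2 of the E1 and E2 list were also called lower. Without WT normoxia replicate 2 or 3 or WT hypoxia replicate 1, 3 or 4 each list gave 4 or 5, and the E1 and E2 list also gave 5 without WT normoxia replicate 4. In the direct comparison of KO with hypoxia 16 of the 32 subunits lay above 0 and 16 below, with a median of 0.00. Since the WT normoxia libraries serve both comparisons, a drop seen in both is not independent.

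Where a list had 0 calls in edgeR, DESeq2 and limma-voom gave 0 as well. At an unadjusted p under 0.05 in edgeR the count in hypoxia was then 4 of 6 for the HDAC3 corepressor complex, 9 of 14 for the GSK3 list, 13 of 26 for the E3 ligase list, 13 of 34 for the E1 and E2 list and 15 of 32 for the proteasome. In KO cells it was 5 of 6 for the corepressor complex, 3 of 10 for the other deacetylases, 6 of 14 for the GSK3 list and 18 of 32 for the proteasome. The share of all genes at this unadjusted p was not counted. It cannot be below the 23.5% in hypoxia and 30.4% in KO cells past the adjusted p. Without that share, whether these counts are more than those of all genes cannot be told.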

How the data were processed

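Poly-A RNA-seq was measured in 12 libraries of MDA-MB-231 cells, grouped by the genotype and treatment of their labels. The deposited values are estimated counts per gene, whole numbers that the authors did not scale to library size. According to the methods, the authors aligned reads with Hisat2 and quantified them with StringTie, whereas the submitters' processing notes name HISAT2, SAMtools and featureCounts. The genome build and the use of strand in counting are not given in the sources used here. The labels and the methods also name different extraction reagents and library kits, and the methods name fewer replicates than the 4 libraries per group analysed. The labels do not say that libraries came from separate cultures, so p-values measure the spread between these libraries, which may be technical. Replicates differed by a chi-square of at least 14.08 per degree of freedom, so none was taken as a duplicate.

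Each comparison was fitted on the whole table for the groups compared, in edgeR 4.0.16 under R 4.3.3 (filterByExpr, TMM, glmQLFit, glmQLFTest) with Benjamini-Hochberg adjustment over all genes tested, at the thresholds of the methods. The sums of 68599412 to 213743693 gave each of the 8 genes at least 1092 counts in every library. CPM use TMM factors of 0.975 to 1.02 from all 12 libraries in one normalization. Permutation tests were two-sided and exact, on log2 CPM with a prior count of 2. Gene positions and lengths came from the GENCODE v29 annotation of GRCh38, and promoters from RefSeq. The fit was tested on simulated data. Alternatives were DESeq2 1.42.0, limma-voom (limma 3.58.1), other normalizations and filters, other thresholds, a joint fit of the 3 groups, the replicate number as a block, leaving out single libraries, plain library sums, another gene length and, added after seeing the data, the fit without the 3 libraries whose values sum to under 100000000. This last fit removed only those in the groups compared. In hypoxia against normoxia they were WT hypoxia replicates 1 and 2, which left WT hypoxia replicates 3 and 4. In KO against WT normoxia only KO replicate 2 was removed.

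The 8 genes and the gene lists were chosen with earlier results of these data known. Beyond the 8 genes, genes were named by rule: those called on a list with a mean of at least 100 counts (up to 4 per list and comparison), the 3 genes most like CCAR2, and genes overlapping one of the 8. Not every list gene called is reported singly, and 1 is not reported here. The genes around CCAR2 and 2 proteasome subunits were named outside this rule, after their values were seen.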

Additional observations from a re-analysis of the deposited data

Results flagged for a closer look

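In 24 groups of 4 libraries (the 8 genes in 3 groups), 2 had a library whose gap to its nearest neighbour took a share of the range of the group past the 95% critical value of Dixon's test, where chance alone gives about 1.2. CCAR1 in KO replicate 2 had 118 CPM against 112 in each of the other 3 libraries, a gap of 0.907 of the range. HDAC3 in WT hypoxia replicate 2 had 117 CPM against 106 to 107 in the others, a gap of 0.945. Both libraries are among the 3 whose values sum to under 100000000. Without KO replicate 2 or without WT hypoxia replicate 2, no gene of the 8 passed the call threshold that had not passed it with all libraries, and CCAR1 in KO cells and HDAC3 in hypoxia stayed short of the adjusted p.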

How the results depend on the processing

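CCAR2 was called in KO cells under every alternative that was run. Of 408 log2 fold changes from the alternative fits, counted per gene, comparison and fit, 394 kept their direction. In KO against WT normoxia the fit without libraries of low sum is the fit without KO replicate 2 and is counted under both names. The 14 that turned were values near 0 with adjusted p of 0.716 or more. They were OTUD5 in hypoxia (-0.0131 without a filter, -0.00448 without WT hypoxia replicates 1 and 2 together, -0.00756 to 0.0253 with 1 library left out), CCAR1 in KO cells (-0.0124 to 0.0575 with 1 library left out), GSK3B in KO cells (0.000294 by limma-voom, 0.000233 with at least 10 counts in every library, 0.0162 with upper-quartile normalization, -0.0547 to 0.0349 with 1 library left out) and OTUD5 in KO against hypoxia (-0.0102 with upper-quartile normalization, -0.00627 to 0.0304 with 1 library left out). The adjusted p alone gave 3, 3 and 5 of the 8 genes in place of 0, 1 and 1, since its construction drops the fold threshold. CPM on plain library sums gave a difference in mean log2 CPM of 0.177 for SIAH2 and 0.119 for HDAC3 in hypoxia and 0.0756 for OTUD5 in KO cells, each at the smallest exact permutation p of 0.0286, and turned GSK3B in KO cells to 0.0405 (exact permutation p = 0.600). Plain sums leave out the TMM factors, which lay between 0.977 and 0.993 in WT normoxia. Leaving them out moves all 8 genes of a comparison by nearly the same amount. Why the factors differ was not tested. Per length of the longest transcript, WT normoxia levels were 30.2 for CCAR2, 23.6 for CCAR1, 5.36 for SIAH1, 10.6 for SIAH2, 15.5 for OTUD5, 3.50 for ZNF326 and 52.3 CPM per kb for HDAC3. The replicate numbers did not pair the libraries, with correlations of same-numbered libraries between -0.025 and 0.065. With the replicate block 0, 1 and 1 genes were called and 3, 3 and 6 passed the adjusted p alone, the sixth being GSK3B in KO against hypoxia, which also passed with DESeq2, with at least 10 counts in every library and without WT hypoxia replicate 3 (adjusted p from 0.0279). The values are estimates per gene, and edited or differently spliced CCAR2 transcripts cannot be separated in them.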
